A study of Mus musculus with 24 samples.

Results

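BCAM LO airway epithelial cells were set against the log-scale midpoint of BCAM HI cells and DIFFERENTIATED EPCS, to separate genes whose level in BCAM LO lay outside both other groups from genes whose level merely lay between them. All 24 libraries of the series entered 1 fit, 8 of them BCAM LO, 8 BCAM HI and 8 DIFFERENTIATED EPCS. Each library held RNA of 1000 cells sorted from the trachea of wild-type, untreated female mice, for which the series title gives the strain C57BL/6, and no age, allele or agent is given for any group. In each group 5 libraries (replicates 1 to 5) are labelled batch 1 and 3 (replicates 6 to 8) batch 2; the sources used here state neither what a batch is nor the sort gates. Nothing in the labels says that replicates came from separate animals, so p-values measure the spread between these samples, which may be technical.

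The airway lining is renewed from basal cells, which rest on the basement membrane and carry keratins 5 and 14 and the transcription factor p63. BCAM is a surface receptor for laminin, a basement membrane protein. On the way to secretory or ciliated cells basal cells pass through suprabasal states, and in mouse trachea stratified patches called hillocks, marked by keratins 4 and 13, have a squamous character. A gene of a cell on such a path can be intermediate, or it can be high or low in the cell alone, and a difference from the midpoint does not tell these cases apart.

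A library held between 1824619 and 4440072 estimated counts, and 12213 genes were tested. Over all libraries RNA of Bcam itself did not follow the sort closely: its lowest, median and highest values were 324, 502 and 739 CPM (counts scaled to a common library size) in BCAM HI, 224, 410 and 457 in BCAM LO, and 109, 252 and 907 in DIFFERENTIATED EPCS. The groups overlapped, and its midpoint difference was -0.09 on the log2 scale (SE 0.25, edgeR quasi-likelihood test, called edgeR QL below, Benjamini-Hochberg adjusted p = 0.862). In batch 1 the Bcam medians fell from 458 CPM in BCAM HI through 384 in BCAM LO to 163 in DIFFERENTIATED EPCS, and BCAM LO overlapped both. In batch 2 BCAM LO, at 403 to 430 CPM, lay below BCAM HI, at 515 to 739, and DIFFERENTIATED EPCS, at 457 to 907. The 3 BCAM LO libraries of batch 2 stood apart from the other 5 on the first principal component of log2 CPM, at -6.52 to 7.88 against -43.0 to -34.3, with BCAM HI at -55.8 to -46.1 and DIFFERENTIATED EPCS at 60.2 to 94.0. The 16 secretory genes listed summed to 122915 to 138411 CPM in those 3 libraries and to 41452 to 63896 CPM in the other 5. The same sum was 34629 to 78127 CPM in BCAM HI and 17793 to 440783 CPM in DIFFERENTIATED EPCS. DIFFERENTIATED EPCS carried transcripts of thyroid follicle cells, 13864 to 117279 CPM over 8 tested genes of 10 listed. BCAM LO held at most 243 CPM of these and BCAM HI at most 1285. DIFFERENTIATED EPCS also held 281 to 11567 CPM over 4 tested neuroendocrine genes and 0 to 17650 CPM of 1 tested parathyroid gene. For these BCAM LO held at most 204 and 264 CPM, and BCAM HI at most 26.9 and 11.6. The label does not name these cell types, and their part in the results was not tested. In bulk libraries fewer cells of a type and less RNA per cell cannot be told apart.

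Against the midpoint, 785 genes (6.43% of those tested) were called higher in BCAM LO and 636 (5.21%) lower, at an adjusted p under 0.05. Differences of at least 2-fold numbered 247 above and 184 below, and the median over all tested genes was 0.03 on the log2 scale. Most of these genes did not set BCAM LO apart from both other groups. Of the 785 above, 625 were higher in BCAM LO than in DIFFERENTIATED EPCS without being called against BCAM HI, 56 were higher than BCAM HI alone, 48 lay between the groups on BCAM HI's side, 6 lay between them on the side of DIFFERENTIATED EPCS, 12 were called in neither simple difference, and 38 were called higher than each. Of the 636 below, 580 were lower than DIFFERENTIATED EPCS alone, 13 lower than BCAM HI alone, 10 between the groups, 3 called in neither simple difference, and 30 lower than each. Without the 3 BCAM LO libraries of batch 2 the counts against the midpoint were 817 and 582.

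With both batches in 1 fit, BCAM LO was the nearer to BCAM HI for most genes that differed between the outer groups. The place of BCAM LO was expressed as its log2 distance from DIFFERENTIATED EPCS divided by that of BCAM HI, so that 0 is the level of DIFFERENTIATED EPCS, 0.5 the midpoint and 1 the level of BCAM HI. Among 5046 genes called between BCAM HI and DIFFERENTIATED EPCS (41.3% of those tested) the median place was 0.743, with quartiles of 0.507 and 0.948. The place was over 0.5 for 3811 of them (75.5%), over 1 for 1017 and under 0 for 125. It was not computed within each batch, and the midpoint difference changed between batches for 624 of all genes tested (5.11%). Of all 1421 genes called against the midpoint, 1048 lay on BCAM HI's side of a called difference between the outer groups, 59 on the other side, and 314 had no called difference between the outer groups.

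**Figure D1:**
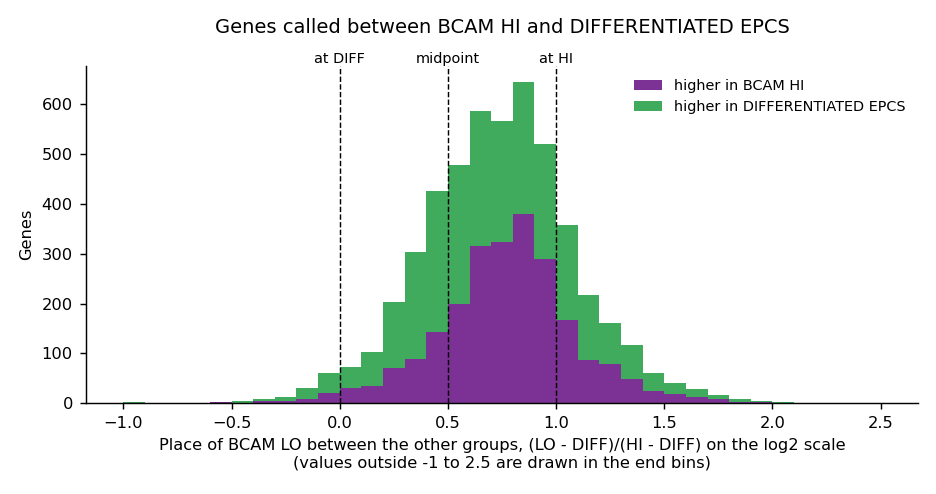
Histogram of the place of BCAM LO between the other groups (x axis, unitless, log2 distances) for the 5046 genes called between BCAM HI and DIFFERENTIATED EPCS; the y axis counts genes, stacked by the group with the higher level. The bulk of the genes lies between the midpoint and BCAM HI, with a median of 0.743.

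A gene outside both groups must differ from each of them in the same direction. By the stricter test, which takes the larger of both p-values and adjusts it over all genes, 0 genes were called higher and 0 lower than both groups by edgeR QL. The smallest adjusted p was 0.112, and 199 genes higher and 210 lower had an unadjusted p under 0.05. The DESeq2 Wald test called 5 higher, namely Cwh43, Ly6d, Clca3a1, Aldh3b2 and Ifit1bl1, and 1 lower, Matn4. With the replicate number as a block in place of batch, edgeR QL called 2 higher, Cwh43 and Ifit1bl1, and 0 lower. A looser rule, chosen after the values were seen, asks for an adjusted p under 0.05 in each simple difference; it gave 38 genes higher than both groups (0.311% of those tested) and 30 lower (0.246%), and the genes described next come from these. With 1 library left out that rule gave 25 (without BCAM HI replicate 1) to 47 higher and 12 (without BCAM HI replicate 3) to 46 lower. Over the other analyses with all libraries it gave 19 to 51 higher and 9 to 54 lower, the least by limma on log2(TPM + 0.1) and without the filter on low counts. Without the 3 BCAM LO libraries of batch 2 it gave 37 and 16. It left 71 higher and 51 lower in batch 1 alone, and 13 and 21 in batch 2 alone.

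**Figure D2:**
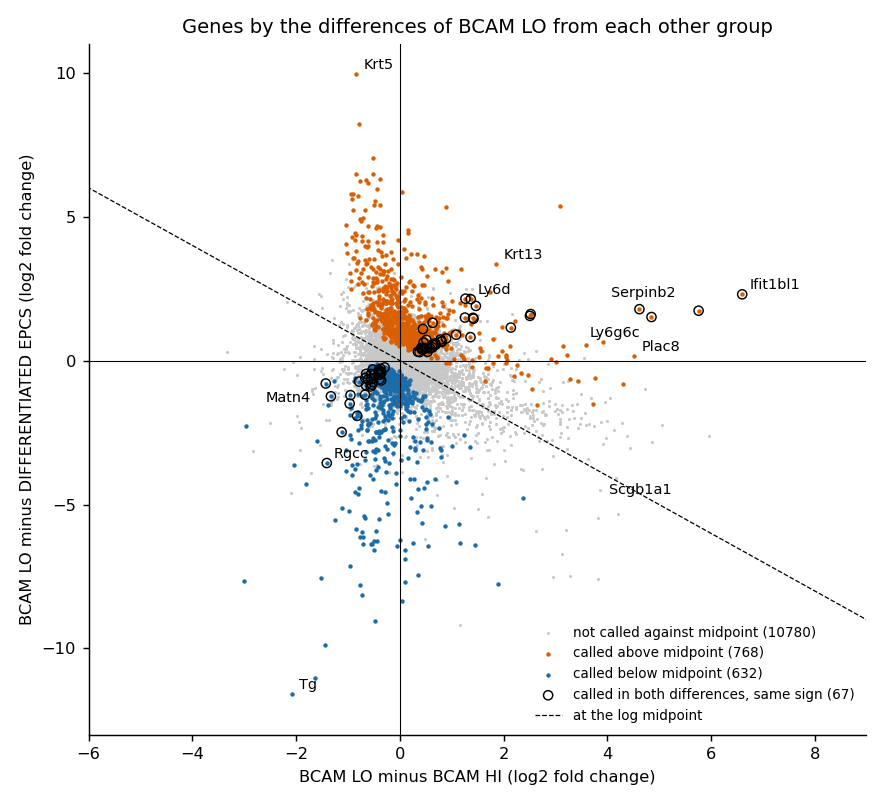
Each point is a gene, placed by its log2 fold change of BCAM LO from BCAM HI (x axis) and from DIFFERENTIATED EPCS (y axis); 33 genes whose counts in any one group summed to at most 3 are left out. Orange and blue points were called above and below the midpoint (dashed line), and circles mark genes called in both differences with the same sign, which sit to the upper right and the lower left.

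Among the named genes higher than both groups, Serpinb2, Ly6g6c, Krt4, Aldh3b2, Cwh43 and Clca3a1 stood above every library of the other groups within each batch, as did Fam84a, which was not called against BCAM HI. Among all genes tested, 7 did so (0.0573% of those tested) and 8 genes lay below every other library within each batch (0.0655%). Clca3a1 was the gene whose 8 BCAM LO libraries all exceeded the other 16 (1 gene, 0.00819%). Taken batch by batch, BCAM LO lay above all other libraries for 86 genes in batch 1 (0.704%) and 242 in batch 2 (1.98%), and below them for 57 (0.467%) and 256 (2.1%).

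Promoters are shown for Serpinb2 and Ly6g6c, which had the largest distances from BCAM HI among these 7 genes, and for Mt2, as an example of the opposite direction. The sequences are RefSeq's on GRCm38.p6, read 5′ to 3′ on the gene's strand from 250 bases before the start site to 50 after it, with motif matches in capitals. Each motif was searched on both strands. The TATA box, which positions the start of transcription, was searched as TATAAA. The AP-1 site, bound by Fos and Jun proteins, was searched with one open position as TGANTCA. A core of the sites bound by Krüppel-like factors was searched, also with one open position, as GGGNGTGG. The site of Grainyhead-like factors, which act in barrier epithelium, was searched as AACCGGTT.
Serpinb2, chr1:107511173-107511472, plus strand, with an AP-1 and a TATA match: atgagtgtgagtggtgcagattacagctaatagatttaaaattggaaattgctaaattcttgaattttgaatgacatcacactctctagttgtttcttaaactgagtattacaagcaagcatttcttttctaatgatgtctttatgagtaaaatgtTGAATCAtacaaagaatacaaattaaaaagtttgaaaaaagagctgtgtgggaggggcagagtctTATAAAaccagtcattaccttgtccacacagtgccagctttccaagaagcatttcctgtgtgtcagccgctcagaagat
Ly6g6c, chr17:35067075-35067374, plus strand, with a TATA match: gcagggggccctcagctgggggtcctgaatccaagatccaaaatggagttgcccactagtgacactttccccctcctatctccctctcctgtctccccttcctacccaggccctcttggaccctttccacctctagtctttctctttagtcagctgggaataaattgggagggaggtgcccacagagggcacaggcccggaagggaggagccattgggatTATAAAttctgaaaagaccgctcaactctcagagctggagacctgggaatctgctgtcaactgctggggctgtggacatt
Mt2, chr8:94172368-94172667, plus strand, with a Grainyhead-like, an AP-1 and a Krüppel-like match: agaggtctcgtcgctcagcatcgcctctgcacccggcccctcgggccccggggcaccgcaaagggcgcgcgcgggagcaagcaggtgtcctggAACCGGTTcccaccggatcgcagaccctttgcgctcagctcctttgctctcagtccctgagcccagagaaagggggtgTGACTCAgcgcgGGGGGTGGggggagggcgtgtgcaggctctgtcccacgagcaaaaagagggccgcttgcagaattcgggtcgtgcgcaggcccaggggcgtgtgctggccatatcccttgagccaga
In Serpinb2 the TATA match began 29 bases before the start site and in Ly6g6c 30 bases before it. RefSeq gives Serpinb2 a second start, from which the same match lies 116 bases upstream, and the Ly6g6c window lies inside the gene span given with its values. Of the 12 named higher genes 8 had a promoter entry, of which 5 held a TATA match, 2 an AP-1 match and 0 either of the other motifs. Of the 12 named lower genes 11 had an entry, of which 3 held a TATA, 1 an AP-1, 2 a Krüppel-like and 1 a Grainyhead-like match. Mt2 alone of these held the AP-1 and the Grainyhead-like match, so its promoter does not stand for the lower genes. It was neither the farthest nor the most stable of them. Among all 32851 promoters of the same length the shares were 13.6%, 7.81%, 17.6% and 0.146% for the TATA, AP-1, Krüppel-like and Grainyhead-like motifs. The matches printed do not overlap each other. These are matches of letters in a window and no binding was measured.

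Serpinb2 (GRCm38 chromosome 1, 107511423 to 107535478, plus strand), which encodes an inhibitor of plasminogen activators, ranged from 0.354 through a median of 2.13 to 9.99 CPM in BCAM HI, from 7.29 through 124 to 191 in BCAM LO, and from 0 through 25.4 to 84.6 in DIFFERENTIATED EPCS. The batches differed in level in both of the latter groups: BCAM LO held 115 to 191 CPM in batch 1 and 7.29 to 20.3 in batch 2, against at most 84.6 and 4.53 in DIFFERENTIATED EPCS. Within a batch no library overlapped, while over all libraries the groups did. The log2 fold change was 4.62 from BCAM HI (SE 0.49, edgeR QL, adjusted p = 3.36e-06) and 1.79 from DIFFERENTIATED EPCS (SE 0.40, adjusted p = 0.00143), and its adjusted p for both together was 0.380.

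Ly6g6c (chromosome 17, 35065388 to 35070050, plus strand) encodes a member of the Ly6 family of small lipid-anchored surface proteins. It ranged from 0.314 through 1.70 to 11.8 CPM in BCAM HI, from 12.9 through 121 to 164 in BCAM LO, and from 4.52 through 23.9 to 73.1 in DIFFERENTIATED EPCS. All 8 BCAM LO libraries were above all 8 of BCAM HI; those of batch 2, at 12.9 to 18.7, lay above the DIFFERENTIATED EPCS of their own batch, at 4.52 to 12.3, but mostly below those of batch 1, at 18.4 to 73.1. The log2 fold changes were 4.85 from BCAM HI (SE 0.49, edgeR QL, adjusted p = 1.58e-06) and 1.51 from DIFFERENTIATED EPCS (SE 0.39, adjusted p = 0.00470).

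Ly6d (chromosome 15, 74762056 to 74763620, minus strand), another Ly6 family gene and a marker of stratified epithelium, had the smallest adjusted p of the stricter test, 0.112, together with Aldh3b2 and Matn4. Its values ran from 10.5 through 12.2 to 22.5 CPM in BCAM HI, from 14.6 through 29.4 to 71.6 in BCAM LO, and from 3.95 through 7.66 to 17.9 in DIFFERENTIATED EPCS. In batch 1 BCAM LO exceeded every other library; in batch 2 it overlapped BCAM HI. The log2 fold changes were 1.37 from BCAM HI (SE 0.27, edgeR QL, adjusted p = 0.00201) and 2.13 from DIFFERENTIATED EPCS (SE 0.29, adjusted p = 1.40e-06), and the first was 1.94 in batch 1 and 0.45 in batch 2.

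Keratin 4 and keratin 13 form the filament pair of stratified, non-cornified epithelia. Krt4 (chromosome 15, 101918535 to 101924735, minus strand) ran from 245 through 358 to 600.3 CPM in BCAM HI, from 600.4 through 1251 to 1412 in BCAM LO, and from 55.4 through 541 to 726 in DIFFERENTIATED EPCS. In batch 1 the groups were far apart, with BCAM LO at 1250 or more, whereas in batch 2 the lowest BCAM LO library and the highest of BCAM HI were level. The log2 fold changes were 1.41 from BCAM HI (SE 0.35, edgeR QL, adjusted p = 0.0174) and 1.49 from DIFFERENTIATED EPCS (SE 0.36, adjusted p = 0.00269).
Krt13 (chromosome 11, 100117327 to 100121566, minus strand) was not called higher than both. It ran from 2.51 through 26.3 to 45.7 CPM in BCAM HI, from 9.43 through 174 to 237 in BCAM LO, and from 0 through 9.18 to 36.0 in DIFFERENTIATED EPCS. All 5 BCAM LO libraries of batch 1 held 155 CPM or more, and the 3 of batch 2 held 9.43 to 27.2, within the range of BCAM HI. Its difference from BCAM HI was 1.86 (SE 0.57, edgeR QL, adjusted p = 0.0521), 2.92 in batch 1 and -0.11 in batch 2; from DIFFERENTIATED EPCS it was 3.34 (SE 0.60, adjusted p = 1.64e-04). Without BCAM HI replicate 8, which held the 45.7 CPM, the stricter test called Krt13 and Ly6d (edgeR QL, adjusted p = 0.0149 and 0.0169). Without DIFFERENTIATED EPCS replicate 3 it called Cwh43, Ly6d and Aldh3b2 higher and Matn4 lower (adjusted p = 0.0432 for each by edgeR QL), and without DIFFERENTIATED EPCS replicate 7 Cwh43 alone (adjusted p = 0.0435).

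**Figure D3:**
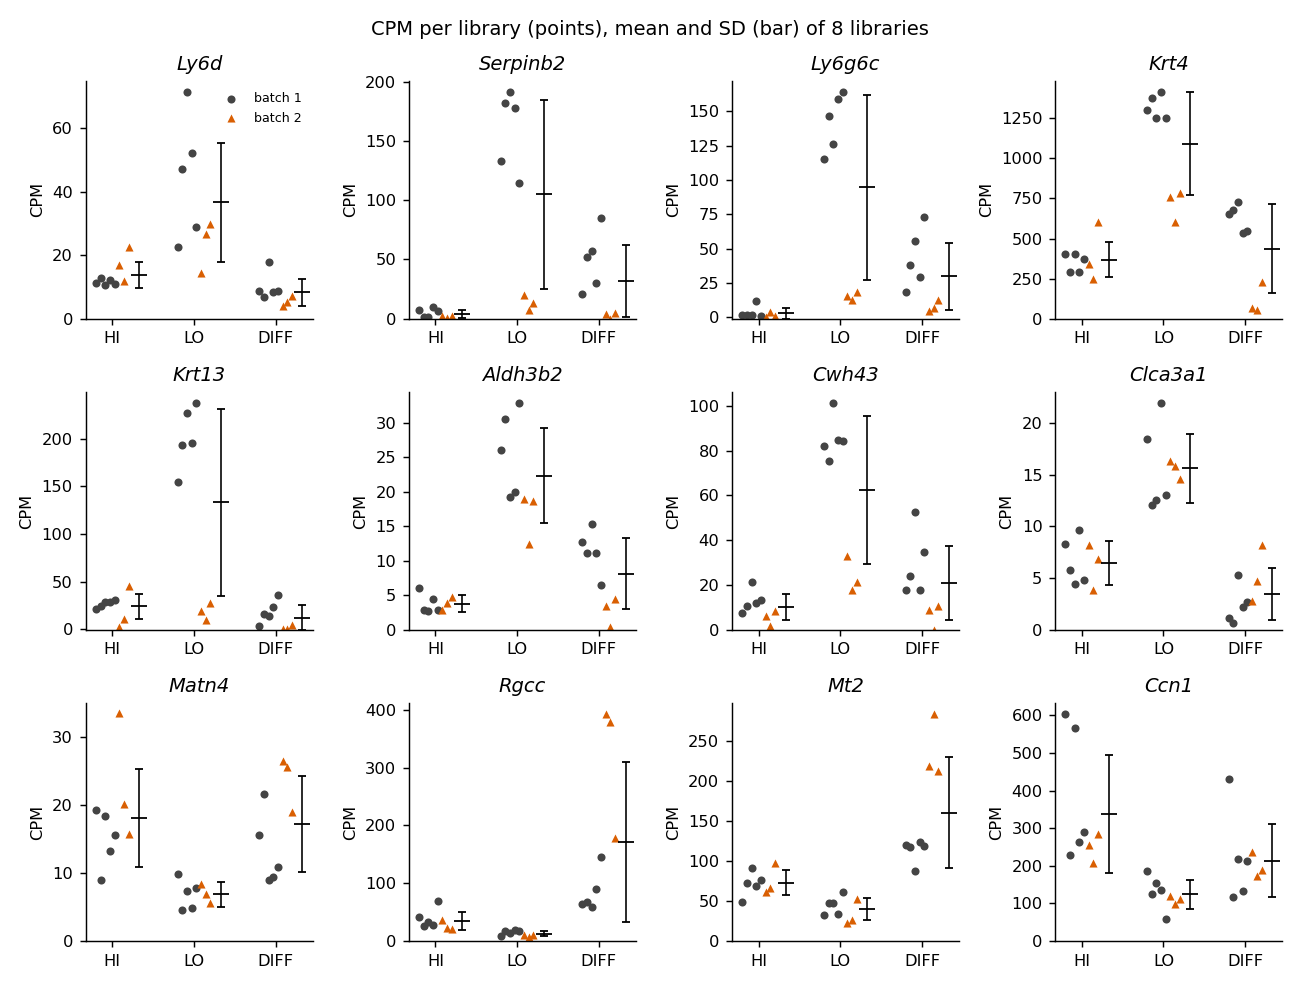
CPM (y axis) of 12 genes in each library of BCAM HI, BCAM LO and DIFFERENTIATED EPCS (HI, LO and DIFF on the x axis); circles are batch 1, triangles batch 2, and the bar gives the mean and SD of 8 libraries. In the first 8 panels BCAM LO is high in batch 1, and in batch 2 it is lower for 7 of them while Clca3a1 keeps its level; in the last 4 panels BCAM LO is the lowest group by mean.

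Aldh3b2, an aldehyde dehydrogenase that acts on lipid aldehydes, ran from 2.69 through 3.39 to 6.06 CPM in BCAM HI, from 12.4 through 19.5 to 32.8 in BCAM LO, and from 0.426 through 8.83 to 15.3 in DIFFERENTIATED EPCS. The BCAM LO libraries overlapped only with DIFFERENTIATED EPCS of the other batch. It was higher by 2.51 (SE 0.32) from BCAM HI and 1.55 (SE 0.31) from DIFFERENTIATED EPCS (edgeR QL, adjusted p = 8.70e-06 and 2.63e-04). Cwh43, whose product remodels the lipid of membrane anchors, ran from 1.77 through 9.68 to 21.5 CPM, from 17.6 through 78.6 to 101 and from 0 through 17.8 to 52.7 in the same order. Its 5 BCAM LO libraries of batch 1 exceeded every library of the other groups, and its log2 fold changes were 2.52 (SE 0.35) and 1.62 (SE 0.34; edgeR QL, adjusted p = 5.60e-05 and 5.88e-04).

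The neighbouring genes Clca3a1 and Clca3b encode secreted proteins of the family once named calcium-activated chloride channels. Clca3a1 ran from 3.89 through 6.30 to 9.70 CPM in BCAM HI, from 12.1 through 15.2 to 21.9 in BCAM LO, and from 0.619 through 2.78 to 8.23 in DIFFERENTIATED EPCS, with no overlap in either batch or over both. Its BCAM LO mean was the same in both batches, 15.6 CPM. On the log2 scale it was higher by 1.27 (SE 0.30) and 2.15 (SE 0.33; edgeR QL, adjusted p = 0.00821 and 8.10e-06). Clca3b was higher by 1.25 (SE 0.32) and 1.49 (SE 0.33; edgeR QL, adjusted p = 0.0167 and 0.00115). The family members are related in sequence, so the division of reads between them by the authors' counting is uncertain.

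Ifit1bl1, a relative of the interferon-induced Ifit1, ran from 0 through 0.138 to 0.881 CPM in BCAM HI, from 1.71 through 27.0 to 59.2 in BCAM LO, and from 0 through 4.42 to 17.4 in DIFFERENTIATED EPCS. Its log2 fold changes were 6.60 (SE 0.67) and 2.30 (SE 0.49; edgeR QL, adjusted p = 5.86e-07 and 6.03e-04). It was the single member called above the midpoint among 17 tested interferon-stimulated genes, where 6.43% of all genes tested were above it. Of the 17, 5 were higher in BCAM LO than in BCAM HI (4.59% of all genes), 2 higher than in DIFFERENTIATED EPCS (16.3%) and 1 lower (17.1%). Irf7, a regulator of interferon genes, was 1.01 higher than in BCAM HI and differed by -0.51 from DIFFERENTIATED EPCS (edgeR QL, adjusted p = 0.00981 and 0.101). The remaining named genes of this direction were Ctss, a lysosomal protease of antigen-presenting cells, Ces1h, a carboxylesterase, and Evpl, which encodes envoplakin of the cornified envelope, with 0.90 to 1.47 log2 units to the nearer group. Ctss overlapped between groups in each batch, and was called in 3 of 10 alternative analyses, as was Evpl.

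The genes lowest in BCAM LO relative to both groups belonged to no single list. Rgcc, a regulator of cell cycle progression that responds to complement, ran from 21.0 through 30.1 to 69.3 CPM in BCAM HI, from 6.43 through 12.1 to 18.1 in BCAM LO, and from 58.0 through 118 to 392 in DIFFERENTIATED EPCS. No BCAM LO library overlapped the other 16, which held for Rgcc and Pygl, glycogen phosphorylase (2 genes, 0.0164% of those tested). The log2 fold changes of Rgcc were -1.41 from BCAM HI (SE 0.41, edgeR QL, adjusted p = 0.0416) and -3.56 from DIFFERENTIATED EPCS (SE 0.44, adjusted p = 1.76e-06). Its call against both groups held in 6 of 10 alternative analyses and with 12 of 24 libraries left out in turn. Pygl differed by -0.75 (edgeR QL, SE 0.31, adjusted p = 0.157) from BCAM HI and -2.25 (SE 0.32, adjusted p = 5.54e-06) from DIFFERENTIATED EPCS, so it was called in one difference only.

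Matn4, an adaptor protein of the extracellular matrix, was the most stable of the lower genes. It ran from 8.93 through 17.0 to 33.6 CPM in BCAM HI, from 4.49 through 7.09 to 9.85 in BCAM LO, and from 8.97 through 17.2 to 26.5 in DIFFERENTIATED EPCS, with an overlap of the ranges at their edges. Its differences were -1.33 (SE 0.24) and -1.24 (SE 0.25; edgeR QL, adjusted p = 7.97e-04 and 2.63e-04). Under the looser rule it was called in each of 10 alternative analyses and with any 1 of the 24 libraries left out. Cwh43, Aldh3b2, Ly6d and Ly6g6c were called in 9 of the 10 and Krt4, Serpinb2 and Clca3a1 in 8, each also with any 1 library left out.

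Metallothioneins bind zinc and copper. Mt2 averaged 72.8 ± 15.7 CPM in BCAM HI, 40.3 ± 13.9 in BCAM LO and 161 ± 69.0 in DIFFERENTIATED EPCS (SD, n = 8), with log2 fold changes of -0.82 and -1.92 (edgeR QL, adjusted p = 0.0242 and 4.97e-07). Mt1 differed by -0.61 from BCAM HI, which was not called (edgeR QL, SE 0.25, adjusted p = 0.156), and by -2.22 from DIFFERENTIATED EPCS (SE 0.27, adjusted p = 7.96e-07); it lay below every other library within each batch, along with Timp3, Gem, Mif, Slc25a4 and Slc2a8. Timp3, an inhibitor of matrix proteases, averaged 180 CPM in BCAM HI, 91.7 in BCAM LO and 488 in DIFFERENTIATED EPCS; the difference from BCAM HI, -0.97 (edgeR QL, SE 0.40, adjusted p = 0.165), was not called. Ccn1, a matrix protein induced by YAP, was the named lower gene farthest from BCAM HI, with -1.43 (SE 0.27) against -0.80 (SE 0.27) from DIFFERENTIATED EPCS (edgeR QL, adjusted p = 0.00201 and 0.0254). The others named by the rule were Col18a1 and Scrn2, with Gnb5, Gadd45g, Slc2a8, Slc25a25, Orc2 and Mdh1. Under the looser rule Col18a1 and Slc25a25 were called in 3 of 10 alternative analyses, Orc2 in 4 and Mdh1 in 5. Gadd45g was called in 6 of them, Gnb5 and Slc2a8 in 7 and Scrn2 in 8. Of 17 immediate early and stress genes, 3 were called below the midpoint (Fos, Ier3 and Btg2) and 0 above, against 5.21% and 6.43% of all genes tested. Ier3 was lower than both groups by -0.51 and -0.75 (edgeR QL, adjusted p = 0.0342 and 3.03e-04). That call held in 4 of 10 alternative analyses and with 15 of 24 libraries left out in turn.

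The gene lists differed in how BCAM LO was placed. Against the background of 6.43% above and 5.21% below the midpoint, 15 of 18 basal genes were above it and 0 below. None of these basal genes was higher than BCAM HI: 17 were higher than in DIFFERENTIATED EPCS (16.3% of all genes tested), 5 were lower than in BCAM HI (2.43%), and 0 were higher. The median basal difference was -0.52 from BCAM HI, 4.21 from DIFFERENTIATED EPCS and 1.81 from the midpoint on the log2 scale. These counts and medians include Krt14 and Dlk2, with at most 3 counts in all DIFFERENTIATED EPCS. Without those 2 genes the last 2 medians were 3.84 and 1.57. Krt5 ran from 1262 through 1682 to 2135 CPM in BCAM HI, from 701 through 973 to 1122 in BCAM LO, and from 0 through 0 to 2.78 in DIFFERENTIATED EPCS. The 3 groups did not overlap, and BCAM LO was -0.84 from BCAM HI (SE 0.24, edgeR QL, adjusted p = 0.0342) and 9.95 above DIFFERENTIATED EPCS (SE 0.40, adjusted p = 1.18e-14). Krt14 held 141 CPM on average in BCAM HI and 34.8 in BCAM LO, a log2 fold change of -1.98 (SE 0.31, edgeR QL, adjusted p = 3.44e-04), with 2 counts in all DIFFERENTIATED EPCS. Trp63, which encodes p63, was -0.76 from BCAM HI (edgeR QL, SE 0.26, adjusted p = 0.0817) and 4.90 from DIFFERENTIATED EPCS (SE 0.34, adjusted p = 1.28e-10). A basal gene could thus lie far above the midpoint while its level in BCAM LO was at or under that of BCAM HI.

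The list of suprabasal and hillock genes had the opposite relation to BCAM HI. Of 21 listed genes 16 were tested, 15 were above the midpoint (6.43% of all genes tested were) and 0 below (5.21% were). Of the 16, 11 were higher than in BCAM HI (4.59% of all genes tested were), 9 higher than in DIFFERENTIATED EPCS (16.3% were) and 1 lower (17.1% were). Higher than both were 5 (0.311% of all genes were), namely Krt4, Ly6d, Serpinb2, Ecm1 and Lgals3. In 10 alternative analyses this call was kept in 8, 9, 8, 5 and 3, in that order. Lgals3 was 0.24 from DIFFERENTIATED EPCS in batch 1 and 1.46 in batch 2. The list medians were 1.37 from BCAM HI, 0.68 from DIFFERENTIATED EPCS and 1.11 from the midpoint. This list was written with results of these libraries known and gives no independent support for its direction. Plac8 shows another way to be above the midpoint: it ran from 0.314 through 1.53 to 4.70 CPM in BCAM HI, from 18.9 through 50.0 to 88.0 in BCAM LO and from 19.2 through 44.4 to 73.8 in DIFFERENTIATED EPCS. It was 4.52 above BCAM HI (SE 0.34, edgeR QL, adjusted p = 3.08e-09) and 0.15 from DIFFERENTIATED EPCS (SE 0.26, adjusted p = 0.703). Krt6a, a keratin of activated squamous cells, showed the reverse, 0.89 from BCAM HI (edgeR QL, SE 0.60, adjusted p = 0.436) and 5.35 from DIFFERENTIATED EPCS (SE 0.86, adjusted p = 5.34e-05). Cldn3, a tight junction claudin, lay between the groups, with a mean of 147 CPM in BCAM HI, 455 in BCAM LO and 783 in DIFFERENTIATED EPCS. In batch 1 BCAM LO, at 419 to 591 CPM, lay below DIFFERENTIATED EPCS, at 833 to 1087. In batch 2 these groups overlapped, at 353 to 497 and 331 to 618 CPM. Of 14 genes listed for the cornified oesophageal lining only 1 passed the filter on low counts, and it was not called.

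**Figure D4:**
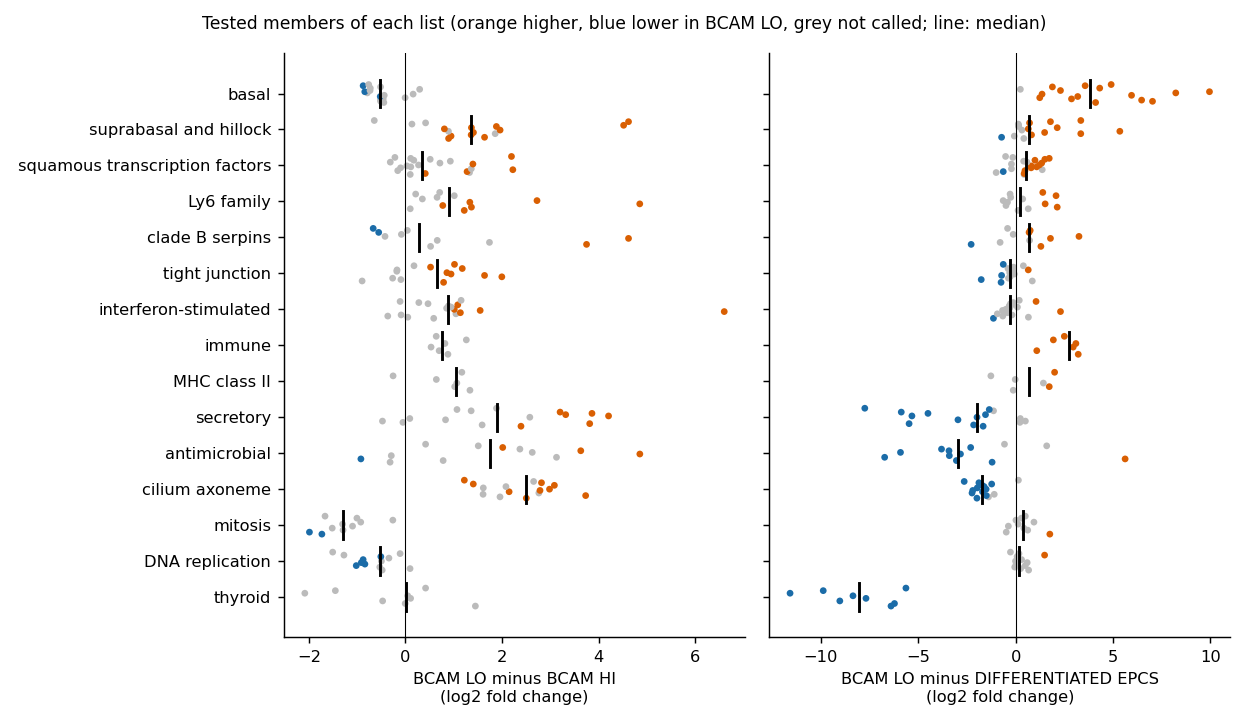
Log2 fold change of BCAM LO from BCAM HI (left) and from DIFFERENTIATED EPCS (right) for the tested members of 15 lists, one point a gene, leaving out genes whose counts in any one group summed to at most 3; orange points were called higher, blue lower, grey not called, and lines mark medians of the points drawn. Basal genes lie mostly left of 0 in the left panel and right of 0 in the right one, suprabasal and hillock genes lie mostly right of 0 in both, and secretory and cilium genes lie on opposite sides.

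Among 20 tested transcription factors of squamous and barrier epithelium 9 were above the midpoint (6.43% of all genes) and 0 below (5.21%). They split by which group they differed from. Zfp750 and Ovol1, repressors active in epidermal differentiation, were 2.20 and 1.40 above BCAM HI (edgeR QL, adjusted p = 4.65e-07 and 1.11e-04) and not called against DIFFERENTIATED EPCS. Sox21, Tfap2a and Klf5 were 1.50, 1.72 and 1.22 above DIFFERENTIATED EPCS (edgeR QL, adjusted p = 6.36e-05, 9.57e-05 and 0.00109) and not called against BCAM HI. Elf3, an epithelial ETS factor, was called in both, at 0.41 and 0.44 (edgeR QL, adjusted p = 0.0462 and 0.00901), which held in 2 of 10 alternative analyses and with 12 of 24 libraries left out in turn. Grhl3, a factor needed for barrier formation, was 2.23 above BCAM HI (edgeR QL, SE 0.57, adjusted p = 0.0150) and 1.36 from DIFFERENTIATED EPCS (SE 0.61, adjusted p = 0.0847); the second difference was 2.95 in batch 1 and -0.95 in batch 2.

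In the other families few members were outside both groups. Of 12 tested Ly6 family genes 4 were above the midpoint, against 6.43% of all genes (Ly6a, Ly6d, Ly6g6c and Lypd3), and Ly6d and Ly6g6c were the members higher than both groups. Ly6a was 1.22 above BCAM HI (SE 0.25, edgeR QL, adjusted p = 0.00362) and 0.12 from DIFFERENTIATED EPCS (SE 0.25, adjusted p = 0.739). Of 10 tested clade B serpins Serpinb2 and Serpinb5 were above the midpoint (6.43% of all genes) and Serpinb9 below (5.21%). Serpinb5 (maspin) followed the basal pattern at 3.25 above DIFFERENTIATED EPCS (SE 0.21, edgeR QL, adjusted p = 3.40e-12) and -0.42 from BCAM HI (SE 0.18, adjusted p = 0.168). Serpinb11 lay between the groups, with means of 2.07 CPM in BCAM HI, 35.9 in BCAM LO and 127 in DIFFERENTIATED EPCS. In batch 2 its BCAM LO libraries, at 42.4 to 115 CPM, overlapped DIFFERENTIATED EPCS, at 33.3 to 444. Of 14 tight junction genes 8 were higher than in BCAM HI (4.59% of all genes), 4 lower than in DIFFERENTIATED EPCS (17.1%) and 3 above the midpoint (6.43%).

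Genes that lay between the groups differed from each outer group in opposite directions. With an adjusted p under 0.05 in each simple difference, the looser form, 174 genes lay between with BCAM HI highest (1.42% of those tested) and 260 with DIFFERENTIATED EPCS highest (2.13%). The stricter form, which adjusts the larger of both p-values over all genes, called 100 genes with BCAM HI over BCAM LO over DIFFERENTIATED EPCS (0.819% of those tested) and 93 in the reverse order (0.761%). Of the 100, 70 were not called against the midpoint and 30 were above it; of the 93, 83 were not called, 3 were above and 7 below. Of the first order Dll1, a Notch ligand, ran from 39.8 through 56.7 to 79.0 CPM in BCAM HI, from 9.70 through 20.6 to 28.8 in BCAM LO and from 2.47 through 3.95 to 14.7 in DIFFERENTIATED EPCS. It was -1.50 from BCAM HI (SE 0.24, edgeR QL, adjusted p = 1.99e-04) and 1.83 from DIFFERENTIATED EPCS (SE 0.29, adjusted p = 1.24e-05), and 0.17 from the midpoint (SE 0.22, adjusted p = 0.687). Glul, glutamine synthetase, averaged 390 ± 42.6, 205 ± 56.7 and 65.0 ± 29.9 CPM (SD, n = 8) in that order. Prc1, an organiser of the mitotic spindle, Fah, Coq8a and Mtmr11 had the same order, with places of 0.545 to 0.656.

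In the reverse order were Ddo, Kcnk5, Prom1, Aldh3b1, Galnt3 and Dnajb11, chosen in the same way, with places of 0.498 to 0.527. Kcnk5, a potassium channel, ran from 0.941 through 2.93 to 4.41 CPM in BCAM HI, from 3.53 through 10.9 to 18.9 in BCAM LO and from 35.3 through 48.1 to 93.2 in DIFFERENTIATED EPCS. It was 2.08 above BCAM HI (SE 0.34, edgeR QL, adjusted p = 3.06e-04) and -2.20 from DIFFERENTIATED EPCS (SE 0.30, adjusted p = 2.11e-06). Prom1, which encodes a protein of membrane protrusions, was 1.39 above BCAM HI and -1.38 from DIFFERENTIATED EPCS (edgeR QL, SE 0.34 and 0.33, adjusted p = 0.0143 and 0.00260); in batch 1 these were 0.85 and -1.98 and in batch 2 2.14 and -0.47. Without the 3 BCAM LO libraries of batch 2 the counts by the stricter form were 14 and 22, and in batch 1 alone they were 53 and 117. Without BCAM HI replicate 8 they were 56 and 63, and without DIFFERENTIATED EPCS replicate 7 they were 132 and 163.

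Of 16 secretory genes 6 and of 16 tested axoneme genes 9 lay between the groups by both simple differences (1.42% and 2.13% of all genes in each order), and 1 and 2 by the stricter form. Of the secretory genes 7 were higher than in BCAM HI (4.59% of all genes) and 11 lower than in DIFFERENTIATED EPCS (17.1%). Of them 0 were above the midpoint (6.43%) and 1 (Tff2, a trefoil peptide of mucus) below it (5.21%). The median midpoint difference was -1.13 in batch 1 and 1.43 in batch 2. Scgb1a1, the club cell secretoglobin, averaged 189, 939 and 89992 CPM in BCAM HI, BCAM LO and DIFFERENTIATED EPCS of batch 1, and 191, 6564 and 5379 CPM in batch 2. Its midpoint difference was -2.13 in batch 1 and 2.69 in batch 2 (edgeR QL, adjusted p of the change = 0.00539). Of 16 tested axoneme genes 10 were higher than in BCAM HI (4.59% of all genes) and 13 lower than in DIFFERENTIATED EPCS (17.1%). Above the midpoint was 1 of them (Ccdc40, needed to assemble inner dynein arms), near the 6.43% of all genes. Their median midpoint difference was -1.41 in batch 1 and 2.18 in batch 2, and the change between batches was called for 12 of the 16, where 5.11% of all genes tested were called. Foxj1, the regulator of motile cilia, averaged 1.67 CPM in BCAM LO of batch 1 and 53.0 in batch 2, with 21.0 and 57.2 in DIFFERENTIATED EPCS. The median midpoint difference also changed sign between batches for apical mucins (-0.85 and 1.20), ciliated fate genes (-0.83 and 0.42), Wnt targets (0.13 and -0.28) and immediate early genes (0.06 and -0.38).

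**Figure D5:**
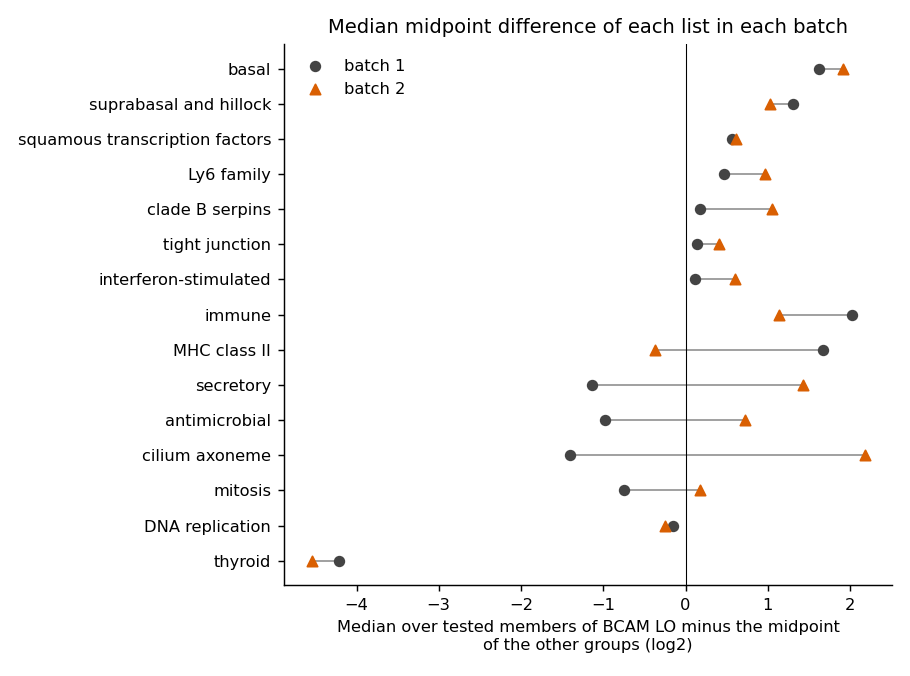
Median over tested members of each list of the BCAM LO difference from the midpoint (x axis, log2), in batch 1 (circles) and batch 2 (triangles), with a line joining them. The basal, suprabasal and thyroid lists keep their side in both batches, while, of the 15 lists drawn, the secretory, antimicrobial, cilium, mitosis and MHC class II medians change sign.

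Proliferation genes did not separate BCAM LO from the midpoint. Of 13 tested replication genes and 10 mitosis genes 0 were called above or below it; 5 and 2 were lower than in BCAM HI, among them the helicase subunit Mcm7, which differed by -0.87 (edgeR QL, adjusted p = 0.00808), and 1 of each was higher than in DIFFERENTIATED EPCS. Of all genes tested 2.43% were lower than in BCAM HI and 16.3% higher than in DIFFERENTIATED EPCS. Of 9 tested Notch genes 3 were above the midpoint (Notch1, Jag1 and Jag2), where 6.43% of all genes tested were. Outside both groups were 0 of the 9, against 0.311% of all genes higher and 0.246% lower. Jag2 and Notch1 were 5.95 and 1.67 above DIFFERENTIATED EPCS (SE 0.21 and 0.19, edgeR QL, adjusted p = 9.16e-19 and 1.29e-07) and -0.44 and -0.02 from BCAM HI (adjusted p = 0.0524 and 0.965). The Notch1 midpoint difference was 1.25 in batch 1 and 0.02 in batch 2 (edgeR QL, adjusted p of the change = 9.15e-04).

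Markers of other cells moved with part of these calls. Of 14 immune genes 6 passed the filter. Of these, 5 were above the midpoint (6.43% of all genes tested were) and 6 above DIFFERENTIATED EPCS (16.3% were). Against BCAM HI 0 were called, where 4.59% of all genes were higher and 2.43% lower. The 6 tested genes summed to 50.1 to 158 CPM in BCAM LO of batch 1, 6.86 to 26.9 in batch 2, 17.7 to 48.5 in BCAM HI and 2.26 to 30.1 in DIFFERENTIATED EPCS. Ptprc, Cd52 and the T and B cell markers were among the 8 members that did not pass the filter. Of 6 tested MHC class II genes 2, H2-Aa and H2-Eb1, were above the midpoint (6.43% of all genes tested were) and 4 were not called. Against BCAM HI 0 of the 6 were called. Their median midpoint difference was 1.67 in batch 1 and -0.37 in batch 2. H2-Aa held 8.07 to 14.6 CPM in BCAM LO of batch 2 and 10.6 to 18.8 in BCAM HI of that batch. Ctss is also high in antigen-presenting cells, and the part of such cells in the result was not tested. All 8 tested thyroid genes were below the midpoint (5.21% of all genes tested were), with 0 called against BCAM HI, as for Tg, the thyroglobulin gene, at -11.59 from DIFFERENTIATED EPCS (SE 1.14, edgeR QL, adjusted p = 8.40e-08). Such genes lie below the midpoint through DIFFERENTIATED EPCS alone.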

How the data were processed

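RNA of sorted tracheal cells was measured by SmartSeq2 in 24 libraries, read as pairs of 38 bases, per the labels' protocols. The deposited tables hold estimated counts and TPM per transcript, which the authors made before deposit; kallisto 46.1, Picard and GRCm39 are named in the submitters' processing notes. Here estimated counts were summed per gene with GENCODE M21 names and GRCm38 coordinates, rounded, and fitted in edgeR 4.0.16 (R 4.3.3) with group and batch terms, TMM scaling, a filter on low counts and Benjamini-Hochberg adjustment at 0.05. The deposited TPM values entered only a limma 3.58.1 alternative on log2(TPM + 0.1) and log2(TPM + 1); DESeq2 1.42.0 was another. Transcripts matching no gene held 0.299% to 0.575% of the counts. No fold of a single gene is given against a group whose counts for it summed to at most 3. Counts and medians of lists in the text include such genes. Counting intervals were not computed; reads carry no molecular identifiers. The scripts were tested on simulated data.

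The comparison, members and lists were chosen with earlier results of these data known. Named are fixed markers, the 12 genes farthest outside both groups in each direction with a mean of at least 10 CPM, leaving out predicted genes (names of Gm with digits or ending in Rik), the 6 in each order nearest the midpoint, and list members by size. No gene passed the stricter test for the second kind, so the looser rule was used, which was chosen after the values were seen. The alternatives are given in the closing section.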

Additional observations from a re-analysis of the deposited data

Results flagged for a closer look

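For 46 named genes each group of 8 libraries was searched for a library far from the others, 138 sets in all; 14 were found, where chance gives about 1 in 20. On the high side in BCAM HI these were Krt4 in replicate 8 (600.3 CPM), Foxj1 in replicate 8 (5.63), Ly6g6c in replicate 4 (11.8), Rgcc in replicate 5 (69.3), Matn4 in replicate 6 (33.6), Col18a1 in replicate 1 (26.7) and Orc2 in replicate 3 (30.3). On the low side in BCAM HI was Dnajb11 in replicate 1 (6.33 CPM). In BCAM LO it was Clca3b in replicate 3 (114 CPM). In DIFFERENTIATED EPCS they were Dll1 in replicate 6 (14.7 CPM), Mtmr11 in replicate 7 (16.6), Ly6d in replicate 3 (17.9), Ccn1 in replicate 1 (431) and Gadd45g in replicate 2 (235).

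The midpoint difference of 6 of these genes differed between batches by an interaction term (edgeR QL, adjusted over all genes). Batch 2 minus batch 1 was -1.80 for Krt17, -1.50 for Trp63, 1.68 for Ngfr, 4.83 for Scgb1a1, 3.42 for Foxj1 and 2.06 for Aldh3b1 on the log2 scale.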

How the results depend on the processing

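Counts are given in the order above the midpoint, below it, higher than both groups, lower than both, between with BCAM HI highest, and between with DIFFERENTIATED EPCS highest; the edgeR QL values were 785, 636, 0, 0, 100 and 93. The cause of each change was not tested. The DESeq2 Wald test gave 5 higher, 1 lower, 160 and 201 between. Without the filter on low counts 2 were higher and 60 lay in the last order. limma on log2(TPM + 0.1) gave 478, 171, 2 higher, and 167 and 11 between; on log2(TPM + 1) it gave 490, 195, 6 higher, and 227 and 20 between. Without the batch term 14 and 33 lay between. With the replicate number as a block 2 were higher than both, Cwh43 and Ifit1bl1 (adjusted p = 0.00898, edgeR QL), and the other counts were 819, 662, 0, 112 and 85. The labels do not say what shares a number. Deviations of same-numbered libraries correlated at 0.031 to 0.176, above 0.1 in 7 of 24 pairs, so the block was kept as an alternative. In 46 of 48 sets a library correlated best with its own number among its batch, and 23 libraries did so in both other groups. The data thus show a pairing of samples by number, small in size, which the main fit does not model. Batch 1 alone gave 1224 above, 5 higher, 2 lower, and 53 and 117 between; batch 2 alone gave 415, 293, 1 lower, and 1 and 9 between. Without the BCAM LO libraries of batch 2, 14 and 22 lay between. Leaving out each library in turn gave 621 to 840 above, 512 to 690 below, 0 to 3 higher (3 without DIFFERENTIATED EPCS replicate 3), 0 to 1 lower, 56 to 132 and 63 to 163 between.

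Among midpoint differences of single genes, that of Bcam became 0.31 in batch 1 alone and 0.29 without the BCAM LO libraries of batch 2. Scgb1a1 was 2.70 in batch 2 alone and ran from -0.65 to 0.067 with 1 library left out. Foxj1 was -0.19 by limma on log2(TPM + 0.1), and -1.57 both in batch 1 alone and without the BCAM LO libraries of batch 2. In batch 2 alone Cldn4 was -0.068, Cp 0.21 and H2-Aa -0.37. Of 76 genes, the DESeq2 Wald test left all 76 on the same side of the threshold, and batch 2 alone left 30.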
